A study of Arabidopsis thaliana with 63 samples.

Results

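The 10 genes described here are MYB28, MYB29, MYB76, BCAT4, MAM1, MAM3, CYP79F1, CYP79F2, CYP83A1 and FMOGS-OX1, which regulate or carry out the synthesis of aliphatic glucosinolates in Arabidopsis. They were picked by locus identifier as known genes of this route, with earlier results of these data known, and all 10 were found among the 29961 genes and TEs of both RNA-seq tables. Aliphatic glucosinolates are sulfur-rich defence compounds of Brassicaceae that are made from methionine and released as toxic or repellent products when tissue is damaged. Methionine is first lengthened in a cycle opened by BCAT4 and the MAM synthases, then turned into the glucosinolate core by cytochromes P450 of the CYP79F and CYP83 families, and finally modified on its side chain by enzymes such as FMOGS-OX1. The R2R3-MYB factors MYB28, MYB29 and MYB76 activate the genes of this route.

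RNA was sequenced from 10-day-old seedlings of the Columbia background in 3 libraries each of h2a.w-2, h2a.w-1 and WT, grown under long days. The RNA-seq read statistics of the paper list WT and h2a.w-2 only. The paper does not state whether the h2a.w-1 seedlings were grown or sequenced together with them. Both mutants lack H2A.W, the histone H2A variant of plant heterochromatin, which is encoded by HTA6, HTA7 and HTA12. The h2a.w-2 line joins a CRISPR-induced frameshift allele of HTA6 to T-DNA insertions in HTA7 and HTA12, and the h2a.w-1 line joins a T-DNA allele of HTA6 to the same insertions in HTA7 and HTA12. The T-DNA allele of HTA6 comes with a large translocation of chromosome 1 material to chromosome 5, so H2A.W loss and this rearrangement cannot be told apart in h2a.w-1. The ChIP-seq, ATAC-seq and bisulfite samples of the series were not used here.

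The deposited tables give the mean normalized count of each genotype, and for 29910 features (99.8%) these means gave back the whole reads of every library. The letters A, B and C order the libraries of a genotype by size factor, largest first, because the tables carry no replicate numbers. The libraries held between 5995162 and 9662485 recovered reads, and library C was the shallowest of each genotype. Levels are given below as normalized counts, that is reads divided by size factors set over all 9 libraries. The study describes each replicate as its own set of seedlings taken at random, possibly from a shared tray, and p-values measure the spread between these libraries.

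HTA6 stood at 280, 261 and 194 in the h2a.w-2-labelled libraries, at 55.7, 51.3 and 48.0 in h2a.w-1, and at 788, 769 and 920 in WT. HTA7 lay between 74.3 and 99.5 in the h2a.w-2-labelled libraries, between 79.9 and 93.6 in h2a.w-1, and between 647 and 660 in WT. HTA12 reached 25.1, 102 and 24.3 in the h2a.w-2-labelled libraries, 16.3, 18.1 and 21.7 in h2a.w-1, and 80.6, 96.4 and 105 in WT. At HTA12 the h2a.w-2-labelled library B thus goes against its label, but not at HTA6 or HTA7, and the member counts are also given without it below. HTA12 overlaps AT5G02570 on the opposite strand, and without a known strand setting of the counting the reads of these genes cannot be told apart.

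Most of the aliphatic glucosinolate genes were higher in h2a.w-1 than in WT, and most were lower in the h2a.w-2-labelled libraries than in h2a.w-1. In h2a.w-1 against WT, 7 of the 10 members had higher levels at an adjusted p under 0.05, where 10.0% of the 19710 features tested did. Of these, 2 members also passed a log2 fold change of 1, MYB29 and MYB76, against 1.66% of features. The other 5 were MYB28, CYP79F1, CYP83A1, MAM1 and FMOGS-OX1, with fold changes of 1.45 to 1.97. MYB76 met the filter on the mean only through h2a.w-1, with 18.9 normalized counts there and 3.45 in WT. The filter thus favoured its place in these counts. The 3 h2a.w-1 libraries lay above all 3 WT libraries for 8 of the 10 members, all but MAM3 and BCAT4, against 20.3% of features. The median log2 fold change of the members was 0.73, and that of all features was -0.0091.

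Against WT, 0 of the 9 members tested had lower levels in the h2a.w-2-labelled libraries at an adjusted p under 0.05 in limma voom, without or with the fold change threshold, against 0.0203% and 0.0153% of the 19657 features. With both thresholds this fit called 5 features higher and 3 lower, fewer than the paper's DESeq2 analysis did at the same thresholds. With so few calls, 0 members called does not show that the members were unchanged. An unadjusted p under 0.05 was found for 4 of the 9 members, against 11.6% of features, namely MYB29, CYP79F1 and MAM1 with lower and CYP79F2 with higher estimates, and limma-trend also called 0. For 2 members, CYP79F1 and MAM1, the 3 h2a.w-2-labelled libraries lay below all WT libraries, against 10.3% of features. The median log2 fold change of the 9 members was -0.38 and that of all features was 0.0036. Both comparisons with WT share the same 3 WT libraries. MYB76 was left untested in this comparison and in that between the mutants, because its mean normalized count over the libraries fitted was under 10.

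Against h2a.w-1, 6 of the 9 members tested were lower in the h2a.w-2-labelled libraries at an adjusted p under 0.05, against 9.28% of the 19676 features. Of these, 5 also passed the fold change threshold, which 1.98% of features did. They were MYB29, CYP79F1, CYP83A1, MAM1 and FMOGS-OX1, and the other member was MYB28. The groups did not overlap for these same 6 members, against 18.7% of features. This contrast is at the same time the test of whether the effects of the 2 mutants differ, since WT cancels. Without h2a.w-2-labelled library B, the same 5 members were called. MAM1 stood close to the fold change threshold and was not called on leaving out h2a.w-1 library A or B, or h2a.w-2-labelled library A or C.

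**Figure D1:**
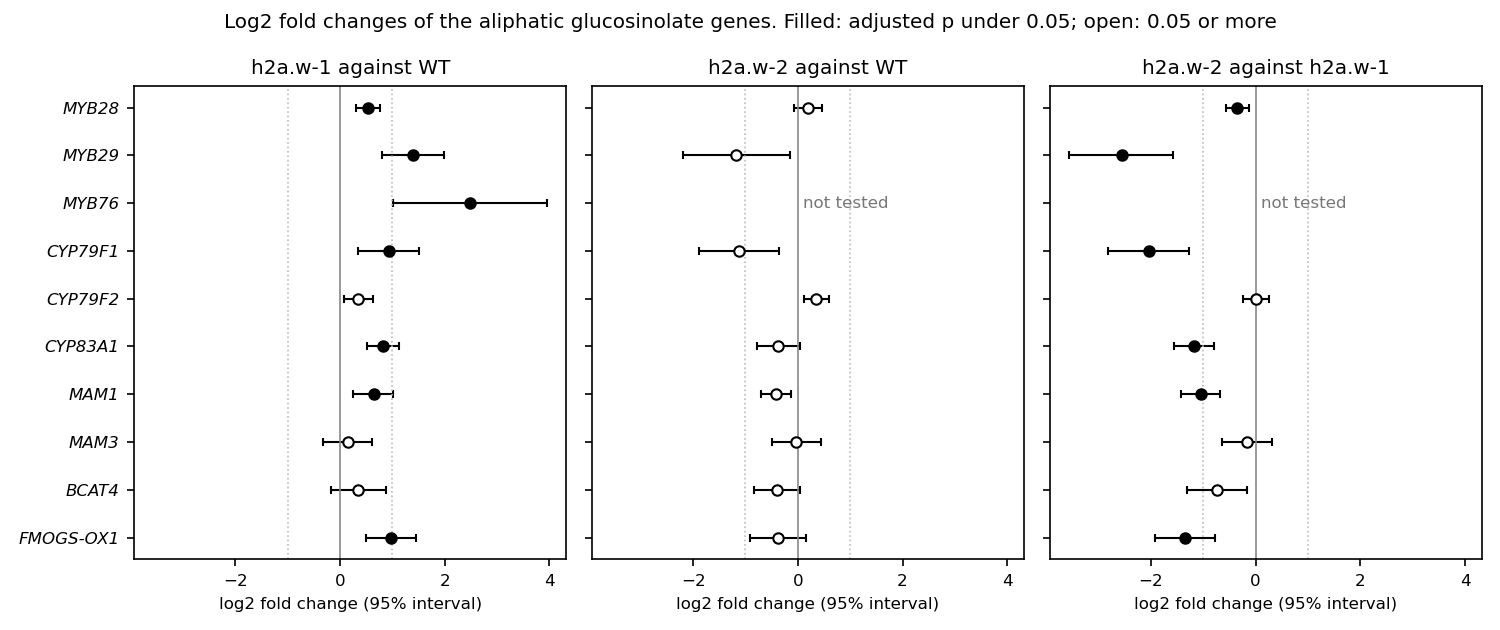
Log2 fold change (x axis) of each aliphatic glucosinolate gene (rows) in the 3 comparisons, with 95% intervals from limma voom as bars and dotted lines at a log2 fold change of 1 in either direction. In h2a.w-1 against WT all 10 estimates lie above 0, and in h2a.w-2 against h2a.w-1 the interval of 7 members lies below 0.

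MYB28 (AT5G61420) is the main activator of the aliphatic branch. It spans 24689069 to 24691187 of chromosome 5 (minus strand) in the TAIR10.1 assembly and has 3 exons. It stood at 522, 489 and 479 normalized counts in the h2a.w-2-labelled libraries, at 649, 616 and 630 in h2a.w-1, and at 492, 399 and 416 in WT. The h2a.w-1 libraries were the highest and did not overlap with the others, and those labelled h2a.w-2 overlapped with WT. The log2 fold change of MYB28 was 0.54 ± 0.10 (SE) in h2a.w-1 against WT (limma adjusted p = 0.00989). It was 0.19 (95% interval -0.07 to 0.46) in the h2a.w-2-labelled libraries against WT. Between the mutants MYB28 had a log2 fold change of -0.35 ± 0.10 (limma adjusted p = 0.0374). In that last comparison MYB28 no longer passed on leaving out any one mutant library or WT library C, with adjusted p between 0.0501 and 0.126.

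MYB29 (AT5G07690), a second activator of the same branch, spans 2446669 to 2448584 of chromosome 5 (plus strand) and has 3 exons. Its reads were 27, 62 and 8 in the h2a.w-2-labelled libraries, 246, 186 and 103 in h2a.w-1, and 88, 65 and 51 in WT. As normalized counts these were 24.2, 59.0 and 11.4 in the h2a.w-2-labelled libraries, 211, 177 and 118 in h2a.w-1, and 73.1, 55.5 and 62.4 in WT. Every h2a.w-1 library lay above every other library, while h2a.w-2-labelled library B fell within the range of WT and libraries A and C below it. MYB29 rose 2.62-fold in h2a.w-1 against WT, a log2 fold change of 1.39 ± 0.26 (limma adjusted p = 0.00898). In the h2a.w-2-labelled libraries against WT its log2 fold change was -1.18 (95% interval -2.20 to -0.15, limma adjusted p = 0.41). This estimate was -1.79 without h2a.w-2-labelled library B and -0.75 without library C. MYB29 had the lowest log2 fold change of the 9 members tested between the mutants, -2.56 ± 0.45 (limma adjusted p = 0.00463), and -3.18 without h2a.w-2-labelled library B (limma adjusted p = 0.00498).

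MYB76 (AT5G07700), the third factor of this group, follows MYB29 at 2450027 to 2451807 of chromosome 5 (plus strand), with 1442 bases and no annotated gene between them. It was by far the least abundant member, with 1, 5 and 0 reads in the h2a.w-2-labelled libraries, 36, 14 and 11 in h2a.w-1, and 2, 3 and 5 in WT. The h2a.w-1 libraries held more reads than all others, and those labelled h2a.w-2 could not be separated from WT at this depth. In h2a.w-1 against WT the log2 fold change of MYB76 was 2.49 ± 0.64 (95% interval 1.02 to 3.95, limma adjusted p = 0.0311). This call was lost without any one of the WT libraries, with adjusted p between 0.0507 and 0.0993, and MYB76 was not tested without h2a.w-1 library A because its mean fell under 10. With a pseudocount of 5 in limma-trend the log2 fold change was 1.48. Between the mutants MYB76 was tested only under 3 alternatives, namely a lower filter on the mean, no filter beyond 1 read, and the 6 mutant libraries alone. It was lower in the h2a.w-2-labelled libraries under each of them, with log2 fold changes of -3.34, -3.40 and -3.41 (limma adjusted p = 0.0179, 0.00864 and 0.029). The coding sequences of MYB29 and MYB76 are 78.1% identical, and no stretch of 75 bases, the length of 1 sequenced read, was shared between their transcripts.

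**Figure D2:**
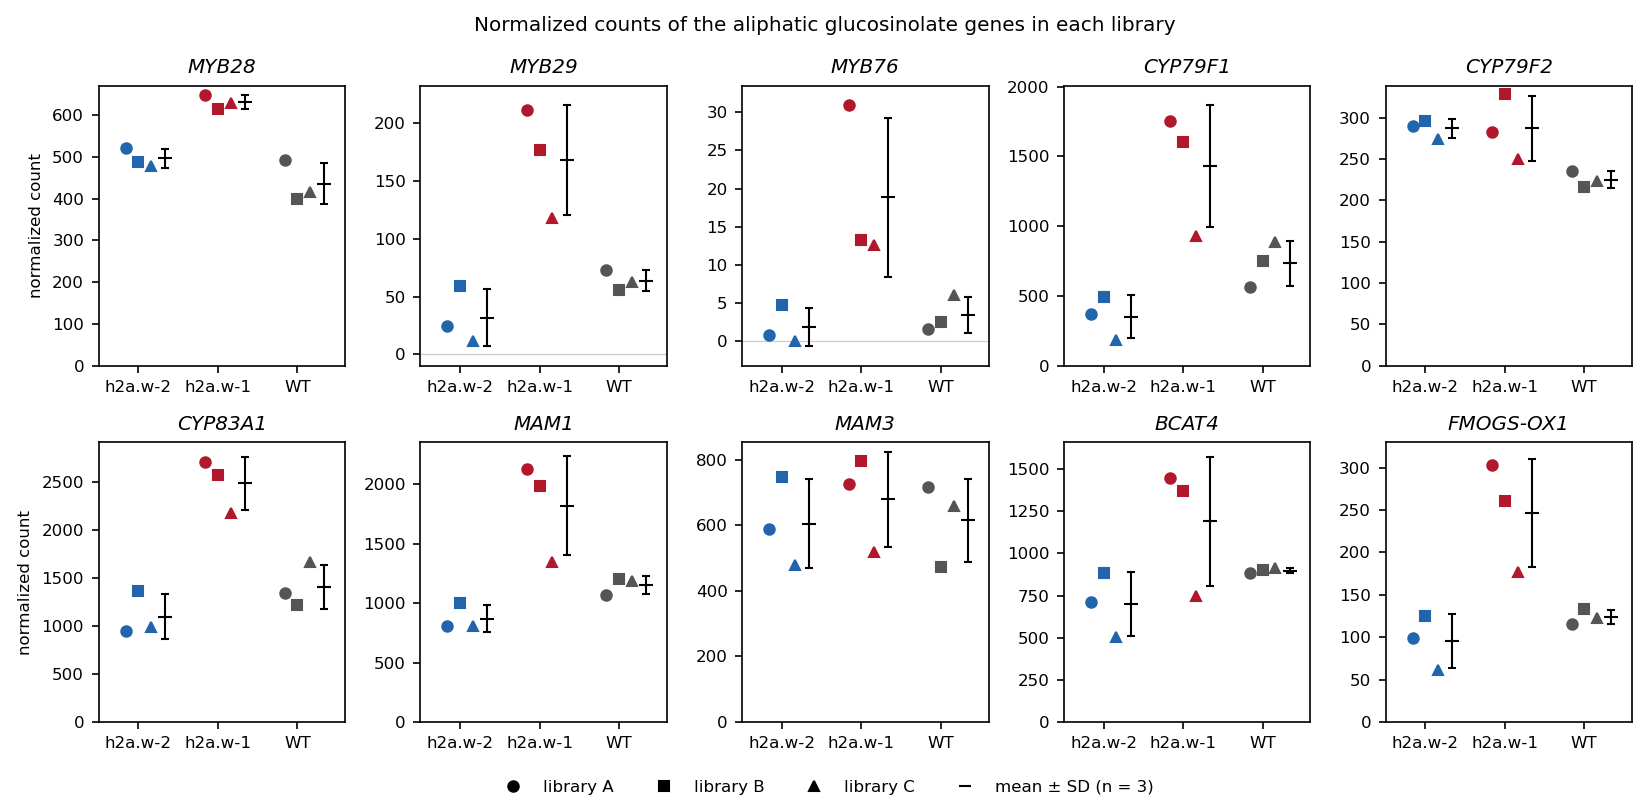
Normalized count (y axis, 1 scale per gene) of the 10 aliphatic glucosinolate genes in the h2a.w-2-labelled libraries, in h2a.w-1 and in WT. Symbols mark libraries A, B and C, and the bar beside them is the mean with its SD (n = 3). The h2a.w-1 libraries of MYB29 lie between 118 and 211, above all others.

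BCAT4 (AT3G19710), the aminotransferase that deaminates methionine at the entry to chain elongation, spans 6846969 to 6849582 of chromosome 3 (minus strand) and has 9 exons. It reached 711, 882 and 504 normalized counts in the h2a.w-2-labelled libraries, 1450, 1370 and 750 in h2a.w-1, and 881, 899 and 912 in WT. Library C of h2a.w-1 lay below all WT libraries and libraries A and B above them, so the groups overlapped. The log2 fold change of BCAT4 was 0.35 (95% interval -0.18 to 0.87) in h2a.w-1 against WT and did not pass the test. Without h2a.w-1 library C it was 0.65, and the limma adjusted p was then 0.00505. Its log2 fold change in the h2a.w-2-labelled libraries against WT was -0.40 (95% interval -0.84 to 0.04). Between the mutants the log2 fold change of BCAT4 was -0.74 ± 0.26 (limma adjusted p = 0.0726). Leaving out h2a.w-1 library C gave -1.05 (limma adjusted p = 0.0118), and leaving out h2a.w-2-labelled library B gave -0.92 (limma adjusted p = 0.0455). A gene on the opposite strand, AT3G19700, shares 307 bases with the BCAT4 locus but had at most 3 reads in any library.

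MAM1 (AT5G23010) and MAM3 (AT5G23020) encode the methylthioalkylmalate synthases that add a carbon unit in each elongation cycle, MAM1 mainly in the first cycles and MAM3 at all chain lengths. They lie on the plus strand of chromosome 5, MAM1 from 7703041 to 7706973 and MAM3 from 7718118 to 7721866, with 10 exons each and no annotated gene between them. MAM1 stood at 804, 997 and 806 normalized counts in the h2a.w-2-labelled libraries, at 2130, 1990 and 1350 in h2a.w-1, and at 1070, 1200 and 1190 in WT. The 3 genotypes formed separate ranges for MAM1, with h2a.w-1 highest and the h2a.w-2-labelled libraries lowest. MAM1 rose 1.55-fold in h2a.w-1 against WT (log2 0.64 ± 0.17, limma adjusted p = 0.0333), but no longer passed without any one of the WT libraries or without h2a.w-1 library A or B. Its log2 fold change was -0.42 (95% interval -0.70 to -0.13, limma adjusted p = 0.366) in the h2a.w-2-labelled libraries against WT, and -1.04 ± 0.17 between the mutants (limma adjusted p = 0.00318). Between the mutants it was -0.92 without h2a.w-1 library A, -0.97 without h2a.w-1 library B, and -0.99 without h2a.w-2-labelled library A or C, each with an adjusted p of at most 0.018 but short of the fold change threshold.

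MAM3 showed no such separation. It stood at 590, 748 and 479 normalized counts in the h2a.w-2-labelled libraries, at 726, 797 and 517 in h2a.w-1, and at 716, 473 and 658 in WT, and all 3 genotypes overlapped. The log2 fold change of MAM3 was 0.15 (95% interval -0.32 to 0.61) in h2a.w-1 against WT and -0.03 (-0.50 to 0.45) in the h2a.w-2-labelled libraries against WT. Between the mutants it was -0.16 (-0.65 to 0.32). The coding sequences of MAM1 and MAM3 are 83.8% identical, and none of the 75-base windows of the MAM1 transcript occurs in that of MAM3. The difference between the log2 fold changes of MAM1 and MAM3 was not tested.

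CYP79F1 (AT1G16410) and CYP79F2 (AT1G16400) encode the P450 enzymes that open core synthesis by turning elongated methionine into aldoximes, CYP79F1 on short and long chains and CYP79F2 on long chains. They are neighbours on the plus strand of chromosome 1, CYP79F2 from 5605044 to 5607498 and CYP79F1 from 5608682 to 5612064, separated by 1183 bases. Their coding sequences are 91.9% identical over 1605 aligned bases, and 26 of 2669 windows of 75 bases of CYP79F1 (0.974%) occur in CYP79F2. The authors kept no multi-mapping reads, and how many read pairs of these genes were left out for that reason was not tested. The start of the coding sequence is shown for both genes because their levels are told apart by such differences, which capitals mark. In these 60 bases, from coding position 32 of CYP79F1 and 29 of CYP79F2, the genes differ at 11 positions.
CYP79F1: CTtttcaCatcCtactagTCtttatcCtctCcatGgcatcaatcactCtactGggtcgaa
CYP79F2: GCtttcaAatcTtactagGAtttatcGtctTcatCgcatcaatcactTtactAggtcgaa

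CYP79F1 reached 370, 491 and 186 normalized counts in the h2a.w-2-labelled libraries, 1750, 1600 and 928 in h2a.w-1, and 567, 748 and 889 in WT. The genotypes formed separate ranges, although h2a.w-1 library C was close to WT library C. CYP79F1 rose 1.90-fold in h2a.w-1 against WT (log2 0.93 ± 0.25, limma adjusted p = 0.0378). It no longer passed without WT library A or B or h2a.w-1 library A or B, with adjusted p between 0.0856 and 0.132, and in the fit of all 9 libraries (0.0957). In the h2a.w-2-labelled libraries against WT its log2 fold change was -1.13 (95% interval -1.89 to -0.36, limma adjusted p = 0.366). Between the mutants CYP79F1 was lower in the h2a.w-2-labelled libraries, with a log2 fold change of -2.04 ± 0.35 (limma adjusted p = 0.00418).

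CYP79F2 did not follow its neighbour. It stood at 290, 296 and 274 normalized counts in the h2a.w-2-labelled libraries, at 283, 329 and 250 in h2a.w-1, and at 235, 216 and 223 in WT. The libraries of both mutants lay above all WT libraries and overlapped with each other. The log2 fold change of CYP79F2 was 0.35 ± 0.12 in h2a.w-1 against WT (limma adjusted p = 0.0816) and 0.35 ± 0.10 in the h2a.w-2-labelled libraries against WT (limma adjusted p = 0.363). Between the mutants it was 0.01 (95% interval -0.24 to 0.26), and its interval does not reach that of CYP79F1 (-2.81 to -1.27). The difference between these neighbours was not tested in itself.

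CYP83A1 (AT4G13770), which oxidizes the aldoximes made by CYP79F1 and CYP79F2, spans 7990429 to 7992429 of chromosome 4 (minus strand) and has 2 exons. It stood at 950, 1370 and 989 normalized counts in the h2a.w-2-labelled libraries, at 2710, 2580 and 2180 in h2a.w-1, and at 1350, 1220 and 1670 in WT. The h2a.w-1 libraries were clear of all others, and h2a.w-2-labelled library B fell within the WT range. CYP83A1 rose 1.76-fold in h2a.w-1 against WT, with a log2 fold change of 0.82 ± 0.14 (limma adjusted p = 0.00605). In the h2a.w-2-labelled libraries against WT its log2 fold change was -0.37 (95% interval -0.78 to 0.04), and between the mutants -1.18 ± 0.17 (limma adjusted p = 0.00211). CYP83A1 passed in h2a.w-1 against WT and between the mutants on leaving out any one library as well.

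FMOGS-OX1 (AT1G65860), a flavin monooxygenase that oxygenates the sulfur of the side chain, spans 24498954 to 24502776 of chromosome 1 (minus strand) and has 7 exons. It reached 98.6, 125 and 61.4 normalized counts in the h2a.w-2-labelled libraries, 303, 260 and 177 in h2a.w-1, and 116, 133 and 122 in WT. The h2a.w-1 libraries were again the highest, and the others overlapped. FMOGS-OX1 rose 1.97-fold in h2a.w-1 against WT, a log2 fold change of 0.98 ± 0.21 (limma adjusted p = 0.0153). Its log2 fold change was -0.38 (95% interval -0.91 to 0.15) in the h2a.w-2-labelled libraries against WT, and -1.35 ± 0.26 between the mutants (limma adjusted p = 0.00652). FMOGS-OX1 lies close to TEs of chromosome 1 that the paper lists with raised copy number in h2a.w-1. The 20 tested genes nearest to FMOGS-OX1 had a median log2 fold change of -0.25 in h2a.w-1 against WT. The copy number of FMOGS-OX1 itself was not tested.

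The 250 bases before the annotated start are shown for the adjoining CYP79F genes, of which CYP79F1 changed between the mutants and CYP79F2 did not pass the test, and for CYP83A1, the next enzyme of the route. Capitals mark the letters CACGTG, the G-box bound by bHLH factors such as MYC2, and the AC elements of R2R3-MYB factors, searched as the words ACCTACC, with ACCAACC, or ACCTAAC, or else ACCAAAC, on both strands without overlap between the motifs. The sequences are those of the RefSeq TAIR10.1 assembly, 5′ to 3′ on the strand of the gene. CYP79F1 has chr1:5608432-5608681 on the plus strand, CYP79F2 chr1:5604794-5605043 on the plus strand and CYP83A1 chr4:7992430-7992679 on the minus strand.
CYP79F1: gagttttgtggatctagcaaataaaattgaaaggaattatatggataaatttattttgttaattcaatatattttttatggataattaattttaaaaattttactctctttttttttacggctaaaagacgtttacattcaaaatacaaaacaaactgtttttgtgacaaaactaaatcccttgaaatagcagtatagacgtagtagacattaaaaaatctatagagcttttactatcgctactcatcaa
CYP79F2: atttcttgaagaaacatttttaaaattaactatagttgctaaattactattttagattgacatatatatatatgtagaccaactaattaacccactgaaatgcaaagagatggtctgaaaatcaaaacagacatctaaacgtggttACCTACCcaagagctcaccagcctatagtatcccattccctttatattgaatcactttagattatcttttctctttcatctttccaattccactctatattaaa
CYP83A1: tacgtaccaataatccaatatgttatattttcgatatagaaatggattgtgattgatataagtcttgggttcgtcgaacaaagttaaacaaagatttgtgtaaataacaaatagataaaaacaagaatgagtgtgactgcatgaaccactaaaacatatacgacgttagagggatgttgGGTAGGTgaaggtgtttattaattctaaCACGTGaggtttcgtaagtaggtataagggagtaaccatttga

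CYP79F1 held neither motif in this window, CYP79F2 held 1 AC element that begins 104 bases before the start, and CYP83A1 held 1 AC element at 71 bases and 1 G-box at 43 bases. Of the 10 members, 3 held an AC element (CYP79F2, CYP83A1 and FMOGS-OX1) and 1 held a G-box (CYP83A1). Among the windows of 27443 protein-coding genes, 13.7% held an AC element and 6.49% a G-box.

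To compare levels between genes, the mean normalized counts were divided by exon length, taken as all exon bases of a gene merged over its annotated transcripts. The order below depends on this choice of length. In WT the order per kilobase of exon was CYP83A1 (739 ± 121, SD, n = 3), BCAT4 (619 ± 10.6), MAM1 (561 ± 36.5), MAM3 (336 ± 69.4), CYP79F1 (225 ± 49.2), MYB28 (220 ± 24.9), CYP79F2 (111 ± 4.84), FMOGS-OX1 (71.5 ± 4.90), MYB29 (36.8 ± 5.14) and MYB76 (2.25 ± 1.54). CYP83A1 and BCAT4, and CYP79F1 and MYB28, differed by less than the larger of their SDs. Among the MYB factors, MYB28 was the most abundant per kilobase in every genotype, at 251 ± 11.6 in the h2a.w-2-labelled libraries, 319 ± 8.39 in h2a.w-1 and 220 ± 24.9 in WT. CYP79F1 was above CYP79F2 per kilobase in h2a.w-1 (437 ± 134 and 142 ± 19.6) and in WT, whereas in the h2a.w-2-labelled libraries it stood at 107 ± 47.1 and CYP79F2 at 142 ± 5.60, a difference smaller than the SD of CYP79F1. Merged exons span 3272 bases in CYP79F1 and 2018 in CYP79F2. Before division the h2a.w-2-labelled means were 349 for CYP79F1 and 287 for CYP79F2, so the order of this pair depends on the length used.

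Within each mutant the libraries ranked much alike over the members. Set as a percent of the WT mean, the median of the 9 members other than MYB76 was 79.2, 98.2 and 70.0 in h2a.w-2-labelled libraries A to C, and 185, 173 and 126 in those of h2a.w-1. In the WT libraries this median was 98.2, 96.1 and 102. Library C held the lowest level of 8 of the 10 members among the h2a.w-2-labelled libraries, and of 9 of the 10 in h2a.w-1. The range over members was wide in h2a.w-2-labelled library C, with 18.0% for MYB29 and 122% for CYP79F2. As libraries share depth and plant material across genes, these are descriptions of the libraries and not independent results.

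**Figure D3:**
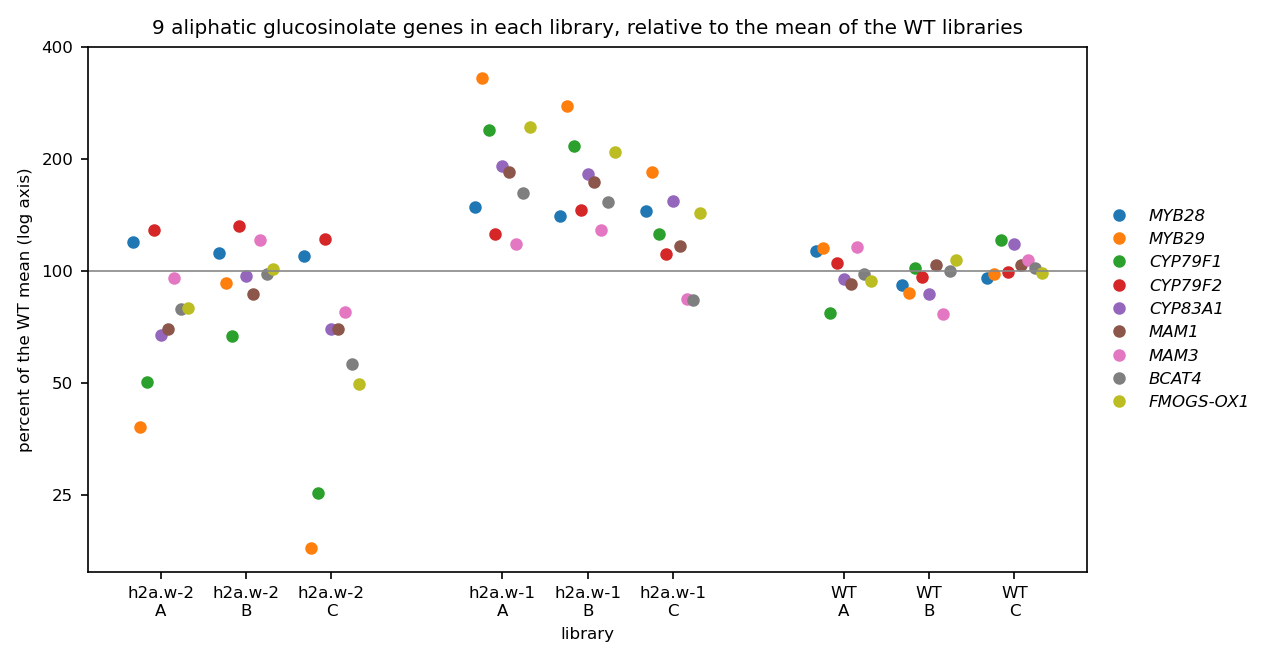
Level of 9 aliphatic glucosinolate genes (colours) in each library as a percent of the mean of the 3 WT libraries, on a log axis. Libraries of h2a.w-1 lie mostly above 100, and h2a.w-2-labelled library C holds the lowest values, with MYB29 at 18.0.

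The other genes of the aliphatic route, from a list of pathway genes, were set beside the members. Of 7 other chain elongation genes, 3 rose in h2a.w-1 against WT at an adjusted p under 0.05, 0 fell and none passed the fold change threshold, and the median log2 fold change was 0.39. At this adjusted p, 10.0% of the 19710 features tested rose and 1631 features fell. The 3 were IPMI-SSU2, a subunit of the isomerase of the cycle (0.81), IPMDH3, a dehydrogenase (0.35), and BAT5, the plastid transporter that carries the 2-oxo acids (0.67). Of 13 other core and side-chain genes, 5 rose, 0 fell, and the median was 0.62. AOP2, a dioxygenase that forms alkenyl side chains, had the largest difference of that list, with 377, 264 and 163 normalized counts in h2a.w-1 and 54.0, 47.8 and 56.3 in WT (log2 2.30 ± 0.38, limma adjusted p = 0.00577). RefSeq lists AOP2 as a transcribed pseudogene in the Columbia reference.

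None of these 20 genes passed the test in the h2a.w-2-labelled libraries against WT, with 3 at an unadjusted p under 0.05, against 11.6% of all features tested. The lowest estimate was that of FMOGS-OX4 (-1.30, limma adjusted p = 0.193) and the highest that of SOT17 (0.13). Between the mutants, 3 of the 7 elongation genes and 6 of the 13 core and side-chain genes were lower at an adjusted p under 0.05, and 0 were higher. Among all features 9.28% were lower at this adjusted p, and 1.98% passed the fold change threshold as well. Those past the fold change threshold were IPMI-SSU2 (-1.25), GSTU20, a glutathione transferase of core synthesis (-1.33), FMOGS-OX3, a side-chain monooxygenase (-1.23), and AOP2 (-2.51).

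The indolic branch, which starts from tryptophan, had a different mix. In h2a.w-1 against WT, 4 of 13 indolic genes fell and 1 rose, with a median log2 fold change of -0.21. Over all 19710 features tested, 1631 fell and 10.0% rose, so the count of indolic genes that rose is near that share. MYB51, an activator of the indolic branch, stood at 208, 197 and 166 normalized counts in h2a.w-1 and at 721, 1040 and 744 in WT (log2 -2.11 ± 0.17, limma adjusted p = 0.000652). CYP81F2, which hydroxylates indole glucosinolates, stood at 29.2, 35.2 and 30.8 in h2a.w-1 and at 192, 302 and 165 in WT (log2 -2.76 ± 0.35, limma adjusted p = 0.00252). Between the mutants both were higher in the h2a.w-2-labelled libraries, MYB51 by 1.82 and CYP81F2 by 2.31 on the log2 scale. In that comparison 804 of the 19676 features tested were called higher. Against WT none of the 13 passed the test in the h2a.w-2-labelled libraries, and 1 had an unadjusted p under 0.05, against 11.6% of features. The estimates there ran from -0.62 for CYP81F4 to 0.27 for IGMT1.

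**Figure D4:**
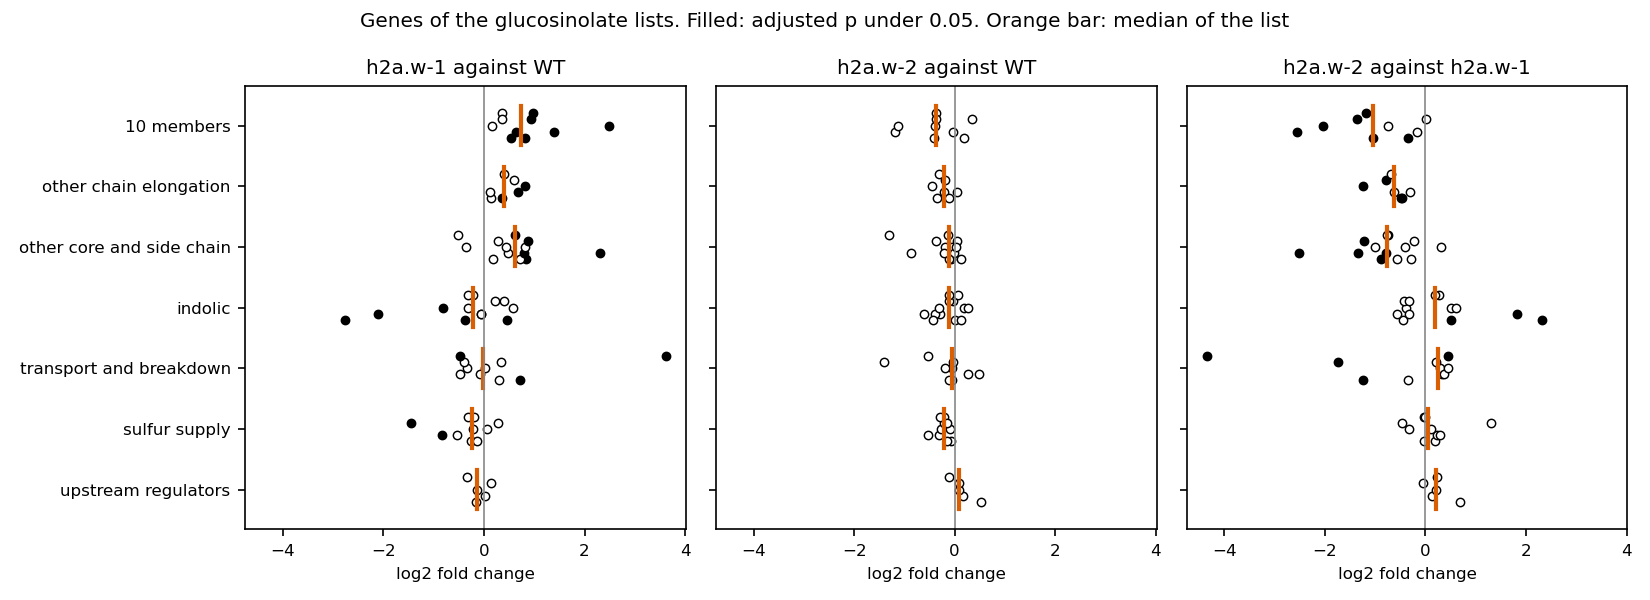
Log2 fold change (x axis) of every tested gene of the glucosinolate lists (rows) in the 3 comparisons, with the median of each list as an orange bar. In h2a.w-1 against WT the medians are 0.73 for the members, 0.39 and 0.62 for the other aliphatic lists and -0.21 for the indolic list.

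Of 10 genes of glucosinolate transport and breakdown tested in h2a.w-1 against WT, 2 rose and 1 fell, with a median log2 fold change of -0.02. As 10.0% of all 19710 features rose and 1631 fell, counts this small do not set the list apart. ESP, the epithiospecifier protein that directs breakdown towards nitriles, stood at 163, 141 and 146 normalized counts in h2a.w-1 and at 22.4, 7.68 and 8.57 in WT (log2 3.62 ± 0.35, limma adjusted p = 0.0012). ESM1, a modifier of the same breakdown step, rose as well (0.72), and PEN2, an atypical myrosinase, fell by 0.48. Between the mutants ESP (-4.35), the myrosinase TGG2 (-1.74) and ESM1 (-1.25) were called lower in the h2a.w-2-labelled libraries, as were 1.98% of features. Against WT, 0 of the 9 genes tested passed in these libraries, and 1 had an unadjusted p under 0.05, against 11.6% of features. The estimates ran from -1.41 for TGG2 to 0.48 for NSP5.

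Of 10 sulfur supply genes, 2 fell in h2a.w-1 against WT and 0 rose, namely APR3, an enzyme of sulfate reduction (-0.84), and SDI1, a gene induced by sulfur shortage that represses the aliphatic route (-1.45 ± 0.42, limma adjusted p = 0.0472). Here too the counts are too small to set the list apart from all features, of which 1631 of 19710 fell. None of the 10 passed in the h2a.w-2-labelled libraries against WT, with 0 at an unadjusted p under 0.05 and estimates from -0.54 for APR3 to -0.07 for APS1. Of the 5 upstream regulators MYC2, MYC3, MYC4, SLIM1 and IQD1, 0 passed in any of the comparisons. Their log2 fold changes in h2a.w-1 against WT ran from -0.34 for IQD1 to 0.14 for SLIM1, and 1 had an unadjusted p under 0.05, as had 6539 of the 19710 features. In the h2a.w-2-labelled libraries against WT they ran from -0.11 to 0.53, the highest being MYC2, with 0 at an unadjusted p under 0.05.

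The 5 genes whose pattern was most like the mean pattern of the members were searched among all features whose mean normalized count reached 10. Likeness was the root mean square difference, over the 9 libraries, of log2(normalized count + 1) centred on each gene's mean. IPMI-SSU2 (AT2G43100), of the elongation cycle, came first with a difference of 0.088, and stood at 161 ± 42.6 in the h2a.w-2-labelled libraries, 386 ± 74.6 in h2a.w-1 and 221 ± 29.3 in WT (SD, n = 3). It was followed by ATN (0.164), ABCG13 (0.165), EXPB3 (0.174) and AT4G24780 (0.176). The median difference over 19667 features was 0.637, and the members themselves ranged from 0.121 to 0.653.

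The genes around each member were compared with it, since the series holds a rearranged line. The median log2 fold change of the 20 tested genes nearest to a member, 10 on either side, lay between -0.25 (around FMOGS-OX1) and 0.20 (around BCAT4) in h2a.w-1 against WT. In the h2a.w-2-labelled libraries against WT it lay between -0.14 (around CYP79F1 and CYP79F2) and 0.07 (around CYP83A1). For MYB29 the median of the neighbours was -0.02 in h2a.w-1 against WT, where MYB29 itself had 1.39. The medians around AOP2 and ESP were 0.23 and -0.07 in h2a.w-1 against WT.

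Few markers of tissues or of the jasmonate response passed the test. In h2a.w-1 against WT these were 1 of 7 root and 1 of 6 jasmonate response markers, and 0 of the 1 shoot, 1 seed storage and 1 flower marker tested. Over all 19710 features tested, 10.0% rose and 1631 fell at the same adjusted p. In the h2a.w-2-labelled libraries against WT 0 passed in limma voom, with 1 jasmonate response marker at an unadjusted p under 0.05, against 11.6% of features. Their levels are given because they differ between libraries, and their part in the results on the members was not tested. In bulk seedlings, fewer cells of a type and less RNA per cell cannot be told apart. Of 8 shoot markers, only LHB1B1 had recovered reads, with 3280 to 7910 normalized counts in the h2a.w-2-labelled libraries, 6410 to 6990 in h2a.w-1 and 4710 to 6240 in WT. The authors' means of the other 7 were higher in h2a.w-1 than in WT, for instance 21200 against 12800 for PSBP-1 and 29500 against 21100 for RBCS1A. In the h2a.w-2-labelled libraries the means of these 7 were lower than in WT, for instance 10400 against 12200 for PSBP-1. These means were not tested. The sum of 7 root markers with recovered reads was 712 to 1090 in the h2a.w-2-labelled libraries, 488 to 904 in h2a.w-1 and 801 to 1820 in WT. All 7 had log2 fold changes below 0 in h2a.w-1 against WT, with a median of -0.93. Of these only the root peroxidase PER72 passed the test (-1.04, limma adjusted p = 0.0484). The authors' mean of PYK10, a root marker without recovered reads, was 23900 in h2a.w-1 and 30000 in WT. In their other comparison it was 25100 in the h2a.w-2-labelled libraries and 28700 in WT.

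The 5 seed storage markers summed to 1.90 to 11.4 normalized counts in the h2a.w-2-labelled libraries, to 18.0, 197 and 296 in h2a.w-1 libraries A, B and C, and to 0 to 2.56 in WT. Nearly all of these reads came from the storage globulin genes CRA1 and CRU3, and CRU2, SESA1 and SESA2 had 0 reads in every WT library. Library A, with the fewest seed storage reads of h2a.w-1, held the highest h2a.w-1 level of each member but CYP79F2 and MAM3. It also had the lowest root marker sum of h2a.w-1 (488) and the highest flower (93.5) and jasmonate response (8040) sums. No link between these markers and the members was tested. The 5 flower markers summed to 64.8 to 82.9 in the h2a.w-2-labelled libraries, 22.8 to 93.5 in h2a.w-1 and 72.5 to 125 in WT. The 6 jasmonate response markers summed to 5310, 4450 and 1440 in h2a.w-2-labelled libraries A to C, to 8040, 7880 and 7010 in h2a.w-1, and to 6900, 5450 and 2780 in WT. Of these 6, only VSP2 passed in h2a.w-1 against WT (log2 3.31 ± 0.29, limma adjusted p = 0.000928), and it was lower by 4.08 between the mutants, in the h2a.w-2-labelled libraries. LOX2 made up the largest part of each sum, with a log2 fold change of 0.79 in h2a.w-1 against WT (limma adjusted p = 0.135). The other 4 markers had estimates below 0 in that comparison, and the median of the 6 was -0.07. None of the markers named here had 0 reads in all 9 libraries.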

How the data were processed

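RNA-seq of 10-day-old seedlings was analysed in 3 libraries each of h2a.w-2, h2a.w-1 and WT, grouped by their labels. According to the methods, the authors trimmed reads with Trim Galore 0.5.0, aligned them to TAIR10 with STAR (2.7.0c in the submitters' processing notes, another release in the reporting summary), discarded multi-mapping reads and probable PCR duplicates, counted reads on Araport11 features with HTSeq and scaled them with DESeq2. The paper names a directional kit for the RNA libraries, but the strand option of the counting is not given in the sources used here. The values deposited by the authors are a signal, the mean over a genotype of counts divided by size factors, in 1 table per mutant with its own WT means. The tables also hold the authors' comparison with WT (log2 fold change, its error, a Wald statistic and p-values) and an overall mean, which were not used. The number of columns per sample left unused was 0.

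Whole reads per library were recovered by trying every combination of whole reads for means up to 12000, which succeeded in every library for 29910 of 29961 features. The other 51 are abundant and were not tested. WT reads came out the same from both tables for 29938 features, and recovered features hold between 90.7% and 92.3% of the summed means. The recovery and the fits were tested on simulated data. Features whose mean normalized count was 10 or more were fitted with limma 3.58.1 (voom) in R 4.3.3, for each mutant against WT with the size factors of its table, while the mutants were compared with each other over all 9 libraries with median-ratio size factors. P-values were adjusted by the Benjamini-Hochberg method over all features tested. A gene passed at an adjusted p under 0.05 and was called where its absolute log2 fold change was also above 1. Fold changes come from these fits on the log scale and differ somewhat from ratios of mean normalized counts. Count models were not run on the recovered reads. The errors of fold changes include the spread between libraries.

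Genes were named by a rule: all members in every library; of each other list the genes called in a comparison, otherwise the highest and lowest estimate against WT; HTA6, HTA7 and HTA12; and the 5 genes most like the members. Genes that passed without being called, and single marker genes, were named after their values were seen. The members and the lists were chosen with earlier results of these data known. Positions and sequences come from RefSeq TAIR10.1, whereas the authors used TAIR10, and windows of 250 bases before the start were searched for motifs. Alternatives covered scaling, the filter on low values, the model, library weights, the threshold, the samples in the fit and each library left out.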

Additional observations from a re-analysis of the deposited data

Results flagged for a closer look

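The effects of the 2 mutants on 5 members differed, by the test of h2a.w-2 against h2a.w-1 in which WT cancels. The log2 differences, h2a.w-2-labelled libraries minus h2a.w-1, were -2.56 for MYB29, -2.04 for CYP79F1, -1.18 for CYP83A1, -1.04 for MAM1 and -1.35 for FMOGS-OX1. All 3 h2a.w-2-labelled libraries lay below all 3 libraries of h2a.w-1 for each of these genes, as they did for 18.7% of the 19676 features tested. Of those features, 1.98% were called lower. The difference of MAM1 was -0.92 to -0.99 without h2a.w-1 library A or B or h2a.w-2-labelled library A or C, and so under the fold change threshold in size.

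The same test separated the mutants for 9 other genes of the glucosinolate lists. Over all 19676 features it called 389 lower and 804 higher. On the log2 scale the differences were -1.25 for IPMI-SSU2, -1.33 for GSTU20, -1.23 for FMOGS-OX3, -2.51 for AOP2, -1.74 for TGG2, -4.35 for ESP and -1.25 for ESM1, all lower in the h2a.w-2-labelled libraries. MYB51 (1.82) and CYP81F2 (2.31) of the indolic branch were higher in the h2a.w-2-labelled libraries.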

How the results depend on the processing

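The number of members called in h2a.w-1 against WT was 2 and depended on the setting. It was 7 at an adjusted p under 0.05 alone, 4 with quality weights per library and 1 with all 9 libraries in 1 fit. Among all features 327 were called higher in the main fit, and 1975, 346 and 312 under these settings. Leaving out 1 library gave 1 to 4 members, with 1 without WT library A or h2a.w-1 library A and 4 without h2a.w-1 library C. The count of members at an adjusted p under 0.05 alone was 5 with all 9 libraries in 1 fit. It was 9 without h2a.w-1 library C, and 4 or 5 on leaving out any other library. In h2a.w-2 against WT 0 members were called under every alternative, and between the mutants the main count was 5 and leaving out 1 library gave 4 to 6. It was 6 with a mean of at least 1, with no filter beyond 1 read and with the 6 mutant libraries alone, where MYB76 was added. Estimates near 0 turned in direction. MAM3 in h2a.w-2 against WT was 0.12 with quality weights and -0.21 to 0.13 on leaving out 1 library, and in h2a.w-1 against WT it was -0.03 to 0.33 on leaving out 1 library. CYP79F2 between the mutants was -0.03 with scaling by total reads, -0.02 with quality weights, and -0.08 to 0.11 on leaving out 1 library. The cause was not tested. No paired analysis was possible because the columns carry no replicate numbers. Depth limits MYB76 most, which had at most 5 reads in any h2a.w-2-labelled or WT library.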

Other observations

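TGG1, the more abundant myrosinase of leaves, had too many reads for recovery in single libraries. The authors' means were 11700 in the h2a.w-2-labelled libraries and 13300 in WT in one table, and 15700 in h2a.w-1 and 13900 in WT in the other. They carry no error here and were not tested.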
